A study of Mus musculus with 12 samples.

Results

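The cerebral cortex layer markers are 9 genes, Lamp5, Cux2, Rorb, Fezf2, Etv1, Tbr1, Foxp2, Rspo1 and Mef2c, out of 29608 genes and transcripts named on the array. They were chosen by symbol, after Lamp5 had been seen among the largest falls of MRL/lpr against MRL/+ in these data, and they are used here as a check on how much cortex the hippocampal dissections held. RNA was measured in 12 adult female mice, killed in diestrus. The 4 MRL/lpr mice carry the Fas mutation that gives lupus-like disease on the MRL background. The 4 Fn14ko mice, bred with them as littermates, lack by their label Tnfrsf12a, the receptor of TWEAK, after 8 generations of backcross. The paper defines them as MRL/lpr mice with Fn14 knocked out, so by that definition they carry the Fas mutation too. The 4 MRL/+ mice (MRL/MpJ) came from another source, have intact Fas and do not develop the disease early. Source and tissue of all 12 samples give the hippocampus, whereas their free-text descriptions name the cortex.

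The arrays are Agilent glass slides with 60-base probes, and each took 2 mice of the same strain, the odd-numbered replicate in the Cy3 dye and the even-numbered one in Cy5. Both arrays of a strain shared a slide, so slide and strain cannot be told apart. One array, with MRL/lpr replicates 3 and 4, was weak: 25.2% and 19.6% of its spots were well above background, compared with 60.8% to 66.0% in MRL/lpr replicates 1 and 2 and 51.5% to 68.1% in Fn14ko. In MRL/+ this share was 67.5% and 66.2% in the Cy3 mice and 29.6% and 31.8% in the Cy5 mice, whose negative-control spots read 208 and 211, against 33.2 to 90.6 elsewhere. The probe for Tnfrsf12a was well above background in all 4 mice labeled Fn14ko, and which part of the gene was deleted is not given in the sources used here, so that probe does not check the label.

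The neocortex is built of stacked layers, and the neurons of each layer switch on their own transcription factors and surface proteins. Cux2 marks the upper layers, Rorb the input layer IV, Fezf2 and Etv1 the projection neurons of layer V, and Tbr1 and Foxp2 the deep layer VI. The hippocampus has a different plan, with granule cells in the dentate gyrus and pyramidal cells in the CA fields. None of the 9 genes is strictly confined to the cortex. Lamp5 is also found in a class of interneurons, and Foxp2 in the striatum and thalamus.

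Lamp5, Fezf2, Rspo1 and Mef2c have 1 probe each, Cux2, Rorb, Etv1 and Tbr1 have 2, and Foxp2 has 4, with positions given in the mm9 build. The probes below are those on which the lower signal of Lamp5, Cux2, Rorb, Tbr1 and Mef2c in MRL/lpr rests, with 1 of the 4 Foxp2 probes added. Both are shown where a gene has a pair that differed in size. The first 30 of the 60 bases are printed, and the whole probe for Mef2c and Foxp2, whose 60 bases span 2238 and 1172 bases of the genome and therefore cross an intron.
Lamp5 A_51_P123262, chr2:135895179-135895238, plus strand: tagctttcttattcctgatggtttaatttt
Cux2 A_66_P122699, chr5:122308503-122308562, minus strand: gatctgcaaacagatccgtccactccacat
Cux2 A_55_P1955861, chr5:122310226-122310285, minus strand: aaataaagaaatatttatagacctctttca
Rorb A_66_P118699, chr19:19006883-19006942, minus strand: tggtgggcgctcccatgtcaccagcacagc
Rorb A_55_P2290388, chr19:19012149-19012208, minus strand: cctgagtggggctcttttgtttgttcgttt
Tbr1 A_55_P2112584, chr2:61652093-61652152, plus strand: ccactgagaatcgttttgttttctgctcgt
Tbr1 A_55_P2405129, chr2:61644054-61644113, plus strand: ttaacatttctggtctcgatcccaccgctc
Mef2c A_55_P2155620, chr13:83772788-83775025, plus strand: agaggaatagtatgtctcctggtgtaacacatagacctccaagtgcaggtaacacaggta
Foxp2 A_51_P233753, chr6:15363873-15365044, plus strand: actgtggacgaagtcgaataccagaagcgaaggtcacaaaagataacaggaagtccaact
The AT-rich second probe of Cux2 holds 23.3% G and C, compared with 40% in the first, and the Rorb pair holds 53.3% and 35%.

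Levels are background-subtracted intensities divided by the median of the same dye channel, so a level of 1 is the median. For Lamp5, Fezf2, Etv1 and Rspo1 the channel median was taken over the 10877 spots valid in all 12 samples, those with a foreground of at least 2 times the background and no outlier flag. The other 5 markers have no such spot and were read from all spots, on a scale of their own. Levels are not compared between genes, and not between the 2 scales. In bulk tissue, fewer cells of a type and less RNA per cell cannot be told apart.

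Of the markers of the upper layers, Lamp5, a lysosome-associated membrane protein of superficial neurons, was lowest in every MRL/lpr mouse. Its level was 0.524, 0.590, 0.437 and 0.592 in MRL/lpr replicates 1 to 4. In the Fn14ko mice it was 1.63, 3.16, 3.30 and 3.43, and in the MRL/+ mice 3.97, 5.73, 4.48 and 5.20. On these spots the 3 strains did not overlap, and the order was MRL/lpr, Fn14ko, MRL/+. Over all 10 Lamp5 spots, valid or not, Fn14ko read 43.5 to 90.2 and MRL/+ 28.6 to 109.9 times the median of all spots. Those strains thus overlapped, while MRL/lpr read 5.43 to 8.75. MRL/lpr stood 9.02-fold below MRL/+, a log2 difference of -3.17 ± 0.23 (SE), which is a description, since Lamp5 was chosen from that contrast. Against Fn14ko the log2 difference was -2.38 ± 0.23, with an adjusted p of 0.000641 by limma and a two-sided exact permutation p of 0.0286, the smallest that 4 mice against 4 allow. Both this contrast and that of Fn14ko with MRL/+ share 4 mice with the contrast Lamp5 was chosen from.

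Lamp5 is spotted 10 times on each array, which shows the precision within a channel. Across all 10 spots the coefficient of variation was 15.0% to 21.4% in MRL/lpr replicates 1 and 2, in Fn14ko and in the Cy3 mice of MRL/+, and 31.9% and 30.4% in the Cy5 mice of MRL/+. On the weak array it was 127% and 156%, with single spots from 1.202 to 21.4 times the median in replicate 3 and from 1.25 to 27.5 times in replicate 4. Of the 10 spots, 4 were well above background in replicate 3 and 2 in replicate 4. The levels given above rest on the 4 spots valid in all 12 samples. Of these, only some were well above background in replicate 3. None was in replicate 4, with a foreground of 2.10 to 2.84 times the background, so its level of 0.592 is a reading near background. Where spots were kept for being well above background in all 12 samples, without the 2-fold rule and the outlier flag, 2 Lamp5 spots remained, both with an outlier flag in both mice of the weak array, and the log2 difference of MRL/lpr from Fn14ko was -0.51 with an adjusted p of 0.637. Without the weak array it was -2.42 ± 0.26, with levels of 1.81 and 2.16 in MRL/lpr on the scale of the 10 remaining samples and 6.31 to 12.98 in Fn14ko.

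Cux2, a homeobox factor of upper-layer neurons, was read at 2.01, 2.55, 0.788 and 0.645 in MRL/lpr. Its level was 13.97, 13.7, 20.6 and 12.2 in Fn14ko, and 23.3, 7.08, 23.9 and 7.67 in MRL/+. All MRL/lpr mice lay below all others, while Fn14ko and MRL/+ overlapped, the lower 2 values of MRL/+ being those of its Cy5 mice. The log2 difference of MRL/lpr was -3.37 ± 0.54 from MRL/+ and -3.54 ± 0.54 from Fn14ko, the latter with an adjusted p of 0.00506 and an exact permutation p of 0.0286.

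Rorb, the nuclear receptor of layer IV, gave 1.57, 1.65, 1.40 and 1.09 in MRL/lpr. In Fn14ko it gave 7.08, 7.08, 5.35 and 5.98, and in MRL/+ 10.4, 4.34, 14.9 and 4.57. Again MRL/lpr stood apart from both other strains, which overlapped. Its log2 difference was -2.41 ± 0.42 from MRL/+ and -2.17 ± 0.42 from Fn14ko (adjusted p = 0.00979, exact permutation p = 0.0286).

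**Figure D1:**
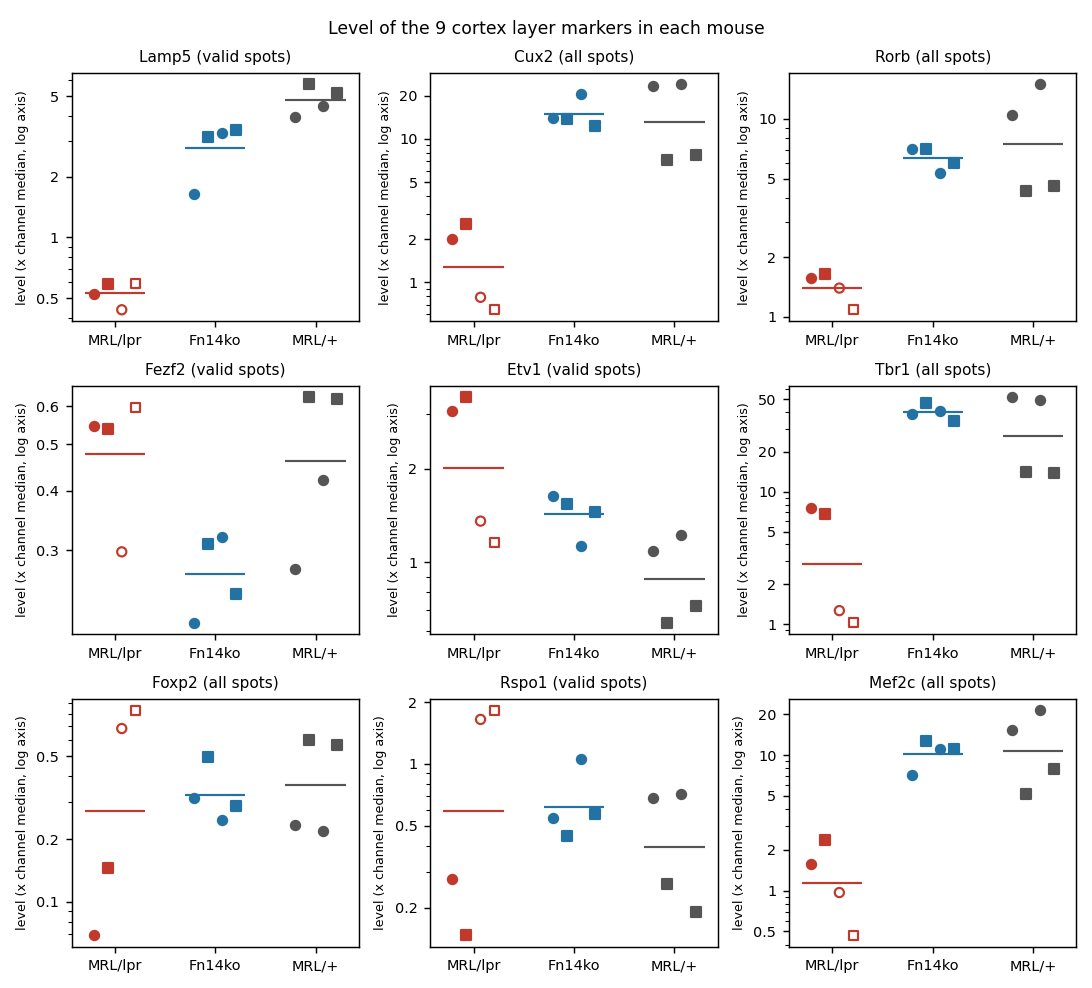
Level of each marker in each mouse, in multiples of the channel median on a log axis, with circles for Cy3, squares for Cy5, open symbols for the weak array and lines at the geometric mean of a strain. In Lamp5, Cux2, Rorb, Tbr1 and Mef2c all 4 MRL/lpr mice lie below all 8 others, while in Foxp2 and Rspo1 the open symbols are the highest of the MRL/lpr mice. Over all genes with valid spots, MRL/lpr lay wholly below Fn14ko in 913 of 8864 and wholly below MRL/+ in 1025. On all spots these counts were 7792 and 987 of 29608.

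The deep-layer factor Tbr1, a T-box protein, was read at 7.56, 6.80, 1.26 and 1.02 in MRL/lpr, at 38.8, 46.4, 40.5 and 34.2 in Fn14ko and at 51.7, 14.2, 49.1 and 13.8 in MRL/+. The MRL/lpr mice were below the others also without the weak array's pair, which had the lowest readings. The log2 difference was -3.22 ± 0.71 from MRL/+ and -3.80 ± 0.71 from Fn14ko (adjusted p = 0.00877, exact permutation p = 0.0286).

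Mef2c, a MADS-box factor active in maturing cortical neurons, followed with 1.58, 2.37, 0.968 and 0.467 in MRL/lpr, 7.06, 12.7, 11.0 and 11.0 in Fn14ko and 15.3, 5.12, 21.4 and 7.87 in MRL/+. MRL/lpr did not overlap with either strain. The log2 difference was -3.23 ± 0.56 from MRL/+ and -3.16 ± 0.56 from Fn14ko (adjusted p = 0.00744, exact permutation p = 0.0286). Cux2, Rorb, Tbr1 and Mef2c were well above background in MRL/lpr replicates 1 and 2 and not in replicates 3 and 4. The lower MRL/lpr readings of Cux2, Rorb, Tbr1 and Mef2c are therefore readings near background.

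The remaining 4 markers did not share this pattern. Fezf2, the zinc finger factor of subcortical projection neurons, gave 0.545, 0.537, 0.298 and 0.595 in MRL/lpr, 0.212 to 0.320 in Fn14ko and 0.274 to 0.626 in MRL/+. The MRL/lpr values of 0.298 and 0.595 are those of replicates 3 and 4, in which Fezf2 was not well above background. Its log2 difference of MRL/lpr from Fn14ko was 0.84 ± 0.30, with an adjusted p of 0.0970, and from MRL/+ 0.05 ± 0.30.

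Etv1, an ETS factor of layer V, was 3.07 and 3.39 in MRL/lpr replicates 1 and 2 and 1.36 and 1.16 on the weak array, compared with 1.13 to 1.64 in Fn14ko and 0.639 to 1.22 in MRL/+. The pair outside the weak array lay above all mice of the other strains. Over all 4 mice the log2 difference was 0.50 ± 0.37 from Fn14ko (adjusted p = 0.303) and 1.18 ± 0.37 from MRL/+.

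Rspo1, a secreted R-spondin that strengthens Wnt signaling, was 0.275 and 0.147 in MRL/lpr replicates 1 and 2 and 1.65 and 1.82 on the weak array. It ranged from 0.446 to 1.06 in Fn14ko and from 0.191 to 0.715 in MRL/+, where neither Cy5 mouse was well above background. The weak array thus held both the highest values and the opposite direction, and the log2 difference from Fn14ko over all mice was -0.07 ± 0.73.

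Foxp2, the forkhead factor of layer VI, was not well above background in any MRL/lpr mouse by any of its 4 probes, so MRL/lpr can be given at most a bound. It was well above background in 3 of 4 Fn14ko and 2 of 4 MRL/+ mice. Bounds are the mean of the brighter strain over the dimmer strain's mean, taking in each channel the higher of the lowest signal called well above background and the probe's own. These bounds concern means, and the Fn14ko mean takes in replicate 4, which was not well above background. Calculated in this way, Fn14ko was 1.44-fold higher than MRL/lpr by the probe that crosses an intron and 1.30-fold by A_66_P130601. Both mice of the weak array entered with their own readings, as did MRL/lpr replicate 1 for the first probe. These 2 values are therefore no minimum. Single mice overlapped. On the weak array the first probe read 0.838 and 0.615, compared with 0.421 to 0.880 in Fn14ko. The second read 0.632 and 0.821, compared with 0.329 to 0.798. A_55_P2113391 and A_55_P2113399 were well above background in no mouse, with log2 differences of MRL/lpr from Fn14ko of 1.02 ± 0.96 and 1.65 ± 1.32. For the gene as a whole that difference was -0.25 ± 0.69 over all mice. Without the weak array the value was 2.53-fold by both probes, and only for the second did no own reading of MRL/lpr enter it.

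For MRL/lpr against Fn14ko, 5 of the 9 markers passed an adjusted p of 0.05, all lower (Lamp5, Cux2, Rorb, Tbr1 and Mef2c). Over all genes 3.98% were called among those with valid spots and 12.8% among all spots, the fit from which 4 of the 5 were read. In each of the 5, all MRL/lpr mice lay below all Fn14ko mice. The same held for 913 of 8864 genes with valid spots and for 7792 of 29608 on all spots. Every such gene has an exact permutation p of 0.0286, so that p does not by itself set the markers apart. For MRL/lpr against MRL/+, 4 of 9 passed (Lamp5, Cux2, Rorb and Mef2c), with 9.17% and 0.993% called over all genes, and nothing is read from this count, since the markers were chosen from that contrast. It fell to 1 when MRL/+ replicate 1 or replicate 3 was left out, both of them Cy3 mice. For Fn14ko against MRL/+, 0 of 9 passed by limma and 2 had an unadjusted p under 0.05, with 0.519% and 0% called over all genes, although 2590 genes of the fit on all spots had an unadjusted p under 0.05. Lamp5 was lower in every Fn14ko mouse than in every MRL/+ mouse (log2 difference -0.80 ± 0.23), with an exact permutation p of 0.0286 and an adjusted p of 0.131. On all 10 Lamp5 spots that difference was 0.24, of the opposite sign. Of the 8864 genes with valid spots, 1246 were likewise lower in every Fn14ko mouse than in every MRL/+ mouse.

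The estimated correlation of the 2 mice of an array was positive only while the weak array was included. With array as a random block over all mice, the estimated correlation was 0.71 for valid spots and 0.658 for all spots. Without the weak array it was negative, at -0.265 for valid spots and -0.475 for all spots. The mice of an array always differed in dye, and the fit held 1 dye effect for all strains. The negative values therefore do not show whether mice of an array resembled each other. With the block over all mice, 0 of the 9 markers passed by limma for MRL/lpr against Fn14ko, 5 having an unadjusted p under 0.05. The adjusted p of Lamp5 was 0.0519, and those of Cux2, Rorb, Tbr1 and Mef2c lay between 0.1398 and 0.262, with the same log2 differences.

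**Figure D2:**
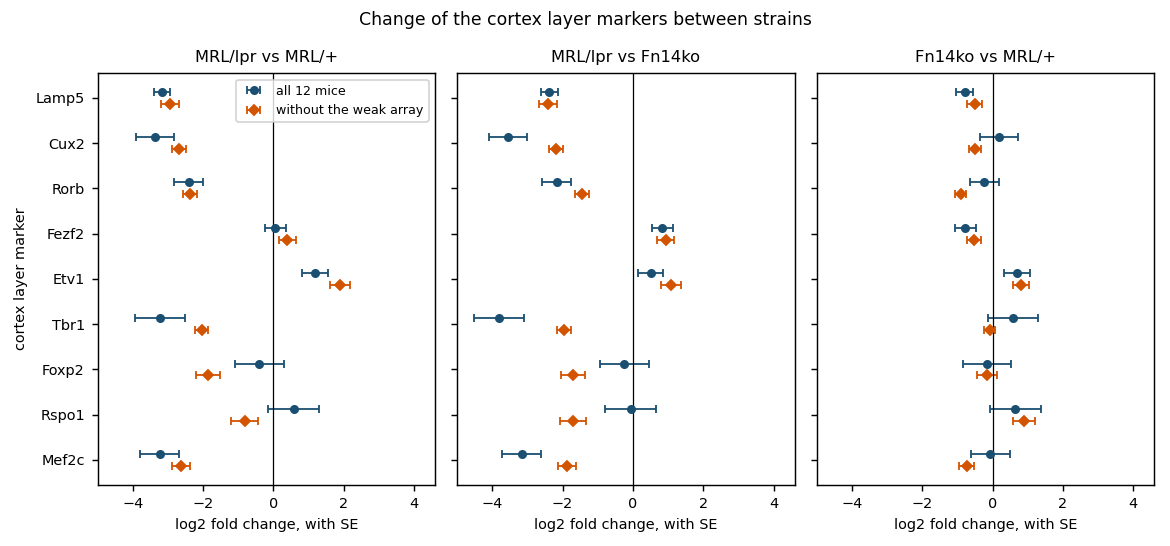
Log2 fold change of each marker with its standard error, over all 12 mice (circles) and over 10 mice without the weak array (diamonds), for the 3 comparisons. Lamp5, Cux2, Rorb, Tbr1 and Mef2c lie left of 0 in both comparisons of MRL/lpr, Foxp2 and Rspo1 lie more than 1 SE left of 0 only without the weak array, and the Foxp2 values rest on MRL/lpr readings that were not well above background.

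Leaving out the weak array keeps 2 MRL/lpr mice, whose only array holds both of them. It also lets spots count that were dim on that array alone, so that 8 of the 9 markers now have valid spots, all but Foxp2. On this scale Cux2 was 0.471 and 0.656 in MRL/lpr, 2.12 to 3.12 in Fn14ko and 3.41 to 3.72 in MRL/+. Tbr1 was 1.77 and 1.75 in MRL/lpr, 5.89 to 8.44 in Fn14ko and 6.14 to 8.26 in MRL/+. The split of MRL/+ by dye narrowed, Cux2 being 3.72 and 3.69 in its Cy3 mice and 3.54 and 3.41 in its Cy5 mice. It stayed wide for Rspo1, at 2.63 and 2.82 in Cy3 and 0.715 and 0.592 in Cy5. Rorb was 0.367 and 0.424 in MRL/lpr, 0.811 to 1.29 in Fn14ko and 1.67 to 2.31 in MRL/+. Mef2c was 0.371 and 0.608 in MRL/lpr, 1.07 to 2.31 in Fn14ko and 2.44 to 3.50 in MRL/+.

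Against Fn14ko, all 9 markers then passed the threshold, with 9.12% of all genes called. Lower were Lamp5 (-2.42), Cux2 (-2.19 ± 0.20), Tbr1 (-1.96 ± 0.19), Mef2c (-1.88 ± 0.26), Rorb (-1.46 ± 0.20) and Rspo1 (-1.71 ± 0.38) on the log2 scale. Foxp2, from all spots of the 10 samples, was lower too (adjusted p = 0.00391, with 14.6% called in that fit), on MRL/lpr readings that were not well above background. Higher were Etv1 (1.08 ± 0.28, adjusted p = 0.0369) and Fezf2 (0.93 ± 0.25, adjusted p = 0.0424). An exact permutation test of 2 mice against 4 cannot go below 0.0667, the value it gave for each of the 9.

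Against MRL/+, described only, the log2 differences of MRL/lpr were -2.93 for Lamp5, -2.69 for Cux2, -2.36 for Rorb, -2.62 for Mef2c, -2.04 for Tbr1 and 1.89 for Etv1. In this contrast 15.7% of all genes were called, and 34.7% on all spots. Between Fn14ko and MRL/+, which lost no mouse, 3 of 9 markers passed where 21.1% of all genes did (25.4% on all spots). Rorb was lower in Fn14ko (-0.90 ± 0.16, adjusted p = 0.00583), Mef2c was lower (-0.73 ± 0.21, adjusted p = 0.0354) and Etv1 was higher (0.80 ± 0.23, adjusted p = 0.0331). Cux2 differed by -0.50 ± 0.16 with an adjusted p of 0.0503, and Tbr1 by -0.08 ± 0.16. In Cux2 all Fn14ko mice were below all MRL/+ mice, as in 1632 of 17936 genes. These values depended on the spots and scale used. On all spots of the same 10 mice the Mef2c probe gave -0.07 ± 0.42. The Cux2 probes gave 0.16 ± 0.39 and 0.22 ± 0.31, and the Etv1 probes 1.60 ± 0.50 and -0.47 ± 0.24. The median log2 difference of all genes was -0.16 for Fn14ko against MRL/+ on the spots valid in 12 samples and -0.07 on those valid in 10.

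The paired probes of Cux2, Rorb and Tbr1 had the same direction in both comparisons of MRL/lpr and differed in size. For MRL/lpr against MRL/+ the 2 Rorb probes gave log2 differences of -3.11 ± 0.47 and -0.54 ± 0.46, the Tbr1 probes -3.48 ± 0.82 and -1.62 ± 0.37, and the Cux2 probes -3.74 ± 0.66 and -2.24 ± 0.37. The weaker Tbr1 probe, A_55_P2405129, was not well above background in any MRL/lpr mouse. Its own MRL/lpr readings set the bound, which therefore equals the measured ratio and is no minimum. By that ratio MRL/+ was 3.08-fold higher and Fn14ko 1.68-fold. MRL/lpr replicate 4 read 0.954 by this probe, above the 0.572 to 0.909 of Fn14ko. Against Fn14ko the Rorb probes gave -2.59 and -1.53. Between Fn14ko and MRL/+ the probes of a gene could differ in sign on all spots without the weak array, with -0.52 ± 0.37 and 0.99 ± 0.41 for Rorb and 0.61 ± 0.42 and -0.87 ± 0.20 for Tbr1. The Etv1 rise of MRL/lpr against Fn14ko, called on valid spots, was within the error on all spots for both probes, at 0.58 ± 0.61 for A_66_P135185 and -0.01 ± 0.29 for A_55_P1986321. Against MRL/+ they gave 2.18 ± 0.61 and -0.48 ± 0.29, the second probe being well above background in 2 of 4 mice of each strain.

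**Figure D3:**
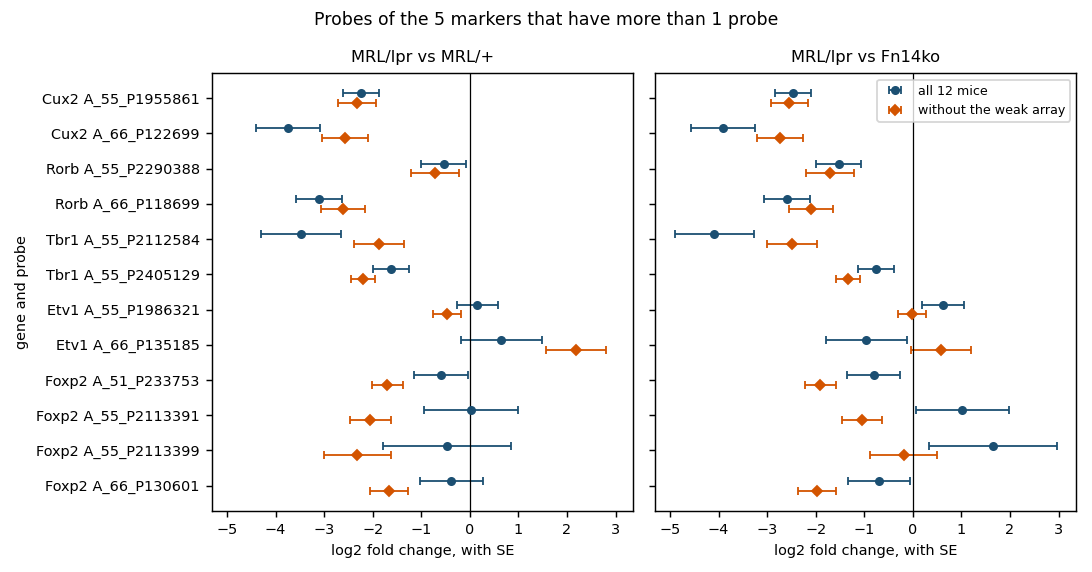
Log2 fold change with its standard error for each probe of the 5 markers that have more than 1, on all spots, over 12 mice (circles) and without the weak array (diamonds). All Cux2, Rorb and Tbr1 probes lie left of 0 in both comparisons of MRL/lpr, while the Etv1 probes lie apart from each other.

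Genes of the hippocampus itself were set beside the cortex markers. Of 19 such genes, 8 passed the threshold in MRL/lpr against Fn14ko and 6 against MRL/+, all of them higher, beside 3.98% and 9.17% of all genes on valid spots and 12.8% and 0.993% on all spots. With array as a random block 0 of the 19 passed by limma in either comparison, and 8 had an unadjusted p under 0.05 in each. Lct, a marker of dentate granule cells, was 3.19 ± 0.29 higher on the log2 scale than in Fn14ko (adjusted p = 0.000641). The desmosome gene Dsp was 4.71 ± 0.56 and Prox1, the granule cell fate factor, 3.37 ± 0.41 higher on all spots (adjusted p = 0.00173 for both). Both were well above background in all 4 MRL/lpr mice and in 2 of 4 mice of each other strain, so the size of these differences rests partly on readings near background. The median of the 19 was 1.68 against Fn14ko and 1.18 against MRL/+, compared with 0.03 and -0.01 over all genes with valid spots. Without the weak array 11 and 12 of the 19 passed, all higher.

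The summed level of the 9 cortex markers over that of the 19 hippocampus genes does not depend on the scaling of a channel. This ratio was 0.227, 0.257, 0.210 and 0.263 in MRL/lpr, 0.725, 1.02, 0.968 and 0.846 in Fn14ko and 1.14, 1.44, 1.35 and 1.37 in MRL/+. The 3 strains did not overlap. The sum was not made of the same markers throughout, since Lamp5, Etv1 and Rspo1 together gave 76.0% and 69.6% of it on the weak array, 63.5% and 62.7% in the other MRL/lpr mice and 48.1% to 60.8% in the other strains. Over the summed level of 12 neuronal genes, the 9 markers came to 4.30% and 3.52% in MRL/lpr replicates 1 and 2, 7.64% and 12.12% on the weak array, 7.28% to 8.08% in Fn14ko and 8.38% to 10.4% in MRL/+. With this denominator MRL/lpr overlapped with the other strains, and MRL/lpr replicate 4 was the highest of the 12 mice. The strains were also apart, less widely, when 20 other cortex layer genes took the place of the 9, with ratios of 1.10 to 1.40 in MRL/lpr and 1.59 to 1.82 in Fn14ko, although Fn14ko overlapped with the 1.71 to 2.23 of MRL/+.

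**Figure D4:**
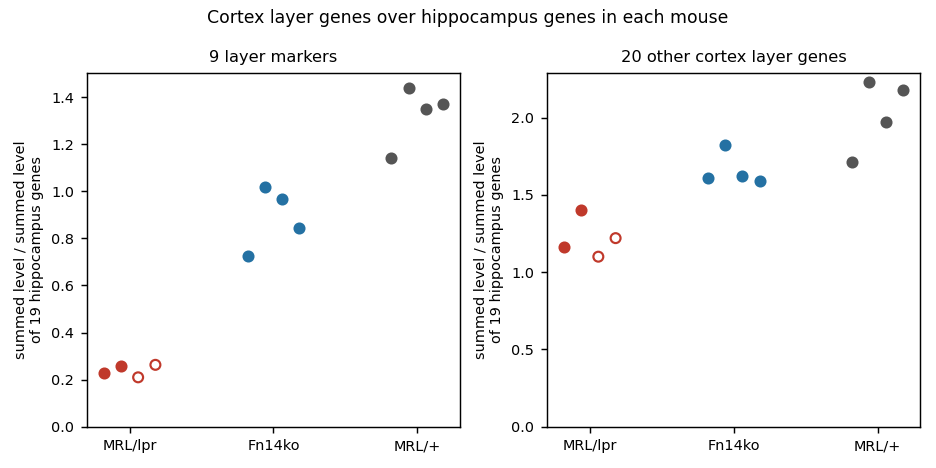
Summed level of the 9 layer markers (left) and of 20 other cortex layer genes (right) over the summed level of 19 hippocampus genes, in each mouse, with open symbols for the weak array and axes that start at 0. On the left MRL/lpr stays at or below 0.263, Fn14ko between 0.725 and 1.02 and MRL/+ at or above 1.14.

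The 20 other cortex layer genes did not move one way. Against Fn14ko 2 fell and 1 rose in MRL/lpr, and against MRL/+ 2 fell and 2 rose, with medians of -0.16 and -0.19. Over all genes 3.98% and 9.17% were called in these comparisons on valid spots, and 12.8% and 0.993% on all spots. Cplx3, a complexin of the deepest cortical cells, fell by 2.25 ± 0.42 against Fn14ko (adjusted p = 0.00857), and Pou3f2, an upper-layer factor, fell by 1.42 ± 0.43 (adjusted p = 0.0474). Crym, a thyroid hormone binding protein of deep-layer neurons, rose by 1.56 ± 0.31 (adjusted p = 0.0234). Without the weak array 4 fell and 3 rose against Fn14ko and 9 fell and 5 rose against MRL/+, beside 9.12% and 15.7% of all genes called. Cplx3 then differed by -2.37 ± 0.23 from MRL/+ (adjusted p = 0.00014).

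Paralogs of the 9 markers were counted in the same way. Of 20, 1 passed in MRL/lpr against Fn14ko (Foxp3, which rose by 1.74 ± 0.54, adjusted p = 0.0497, a gene that 3 of the 12 mice showed well above background), and 1 against MRL/+, where Etv5 fell by 1.28 ± 0.24 (adjusted p = 0.0141). Without the weak array 1 was lower and 1 higher against Fn14ko, and 4 lower and 1 higher against MRL/+. The shares of all genes called were those given for the other cortex layer genes. On all spots without the weak array they were 14.6% and 34.7%. A count of 1 in 20 is near such shares, and nothing is read from it about the paralogs. Cux1, the relative of Cux2 that is likewise found in upper layers, fell by 1.24 ± 0.20 against Fn14ko without the weak array (adjusted p = 0.00424), whereas over all 12 mice its log2 difference was 0.62 ± 0.67 (adjusted p = 0.479), of the opposite sign.

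Genes of other neighboring regions were counted as well. For the counts here and in the next paragraph, the share of all genes called against Fn14ko was 3.98% on valid spots and 12.8% on all spots. Without the weak array it was 9.12% on valid spots. Against MRL/+ these shares were 9.17%, 0.993% and 15.7%. A count of 1 in 8 is near such shares, and nothing is read from it about a region. Of 8 choroid plexus genes, whose summed level was 64.5 to 624 in MRL/lpr, 12.004 to 146 in Fn14ko and 13.5 to 29.9 in MRL/+, 1 passed in MRL/lpr against each other strain over all mice and 5 without the weak array, all higher. Ttr, the thyroxine carrier made there, was the 1 that passed over all mice, 3.55 ± 0.88 higher on the log2 scale than in Fn14ko (adjusted p = 0.0454), and 4.31 ± 0.73 higher without the weak array (adjusted p = 0.00539). Of 9 striatum genes, with a summed level of 18.4 to 68.0 in MRL/lpr, 175 to 673 in Fn14ko and 36.7 to 212 in MRL/+, 5 were lower in MRL/lpr than in Fn14ko, both with and without the weak array. Of 8 thalamus genes, with summed levels of 10.3 to 36.8 in MRL/lpr and 21.2 to 40.0 in Fn14ko, 1 passed against Fn14ko over all mice and 3 without the weak array (Tcf7l2, Prkcd and Zic1), all higher.

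The 12 neuronal genes, which include Slc17a7 and Camk2a of excitatory neurons, had a median log2 difference of -0.82 against Fn14ko over all mice and of -0.35 without the weak array, where Map2 and Camk2a passed, both lower. Of 10 interneuron genes, with summed levels of 40.4 to 358 in MRL/lpr, 503 to 681 in Fn14ko and 215 to 809 in MRL/+, 3 fell in MRL/lpr against Fn14ko. Vip, a peptide of interneurons that contact other interneurons, fell by 2.76 ± 0.63 (adjusted p = 0.0208), Reln, the secreted protein reelin, by 1.496 ± 0.42 (adjusted p = 0.0412) and Pvalb, the calcium buffer of fast-spiking cells, by 1.23 ± 0.30 (adjusted p = 0.0452). Neither Vip nor Reln was well above background on the weak array. In the 10 other mice Vip, Npy and Pvalb were lower and Lhx6 was higher. Among 7 astrocyte genes Gfap rose by 1.39 ± 0.30 (adjusted p = 0.0329) and S100b fell by 4.15 ± 1.15 against Fn14ko, the latter by 0.98 ± 0.18 without the weak array. P2ry12 was the 1 of 7 microglia genes that passed over all mice, and fell by 1.07 ± 0.26 (adjusted p = 0.0450). With array as a random block 0 genes of any of these lists passed by limma in any comparison, and against Fn14ko 4 of 10 interneuron, 5 of 9 striatum and 3 of 8 choroid plexus genes had an unadjusted p under 0.05. Every gene of these lists was well above background in at least 1 sample. The part of the dissection, of the other regions, of the slides and of the strains in the levels of the cortex markers was not tested.

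**Figure D5:**
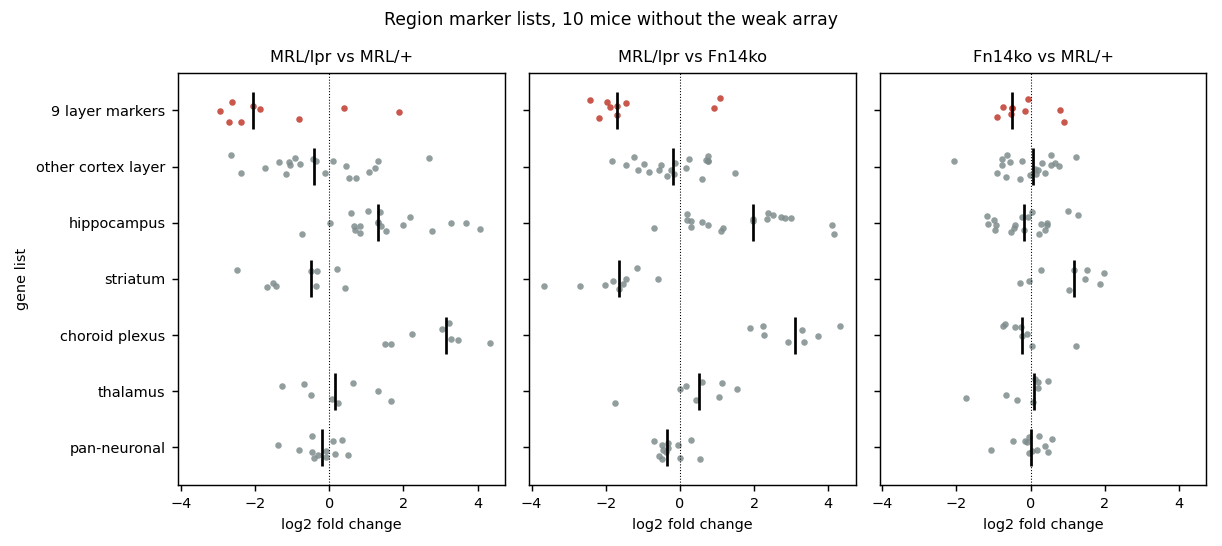
Log2 fold change of each gene (points) and the median (bars) of 7 lists in the 3 comparisons, over 10 mice without the weak array. The hippocampus and choroid plexus genes lie mostly right of 0 and the 9 layer markers mostly left of it in both comparisons of MRL/lpr, whereas between Fn14ko and MRL/+ the striatum genes lie mostly right.

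For the 4 markers with valid spots in all 12 samples, the genes of most similar pattern were taken by Pearson correlation of log2 levels over the 12 mice, as a description over points that share arrays and strains. Lamp5 was most like Sun2 (r = 0.971) and Necab3 (r = 0.966), and both stayed above 0.95 without the weak array (0.987 and 0.956). Etv1 was most like Mcfd2 (r = 0.948) and Lrrn2 (r = 0.932), Rspo1 most like Pitpnm3 (r = 0.948) and Kidins220 (r = 0.937), and Fezf2 most like Ten1 (r = 0.897) and Tbpl1 (r = 0.893). Among the markers themselves, Lamp5 and Etv1 ran opposite to each other, with r of -0.684 over 12 mice and -0.938 over 10.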

How the data were processed

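The 9 markers and all gene lists were chosen with earlier results of these data known. The authors scanned the arrays and extracted spot values with Agilent Feature Extraction 12.1.0.3, per the file headers, and the deposited values are linear intensity readings, 1 per spot and channel, not yet scaled between channels. The flags used (other columns of 0 or 1) are the software's. For 43020 gene probe spots the median local background was subtracted from the mean foreground. Spots with a foreground of at least 2 times background and no outlier flag in all 12 samples (10877 spots, 8864 genes) were kept, following the methods of the study, and each channel was divided by its median. Linear means were then taken, first over the spots of a probe and next over a gene's probes. A gene with no such spot was taken from all spots (29608 genes), with signals under 1% of the channel median set to 1% of it. Without the weak array, 25621 spots and 17936 genes were kept.

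Log2 values were fitted with limma 3.58.1 in R 4.3.3 (lmFit, eBayes with trend), all samples in one fit with dye as a covariate, and p-values were adjusted by Benjamini-Hochberg over all genes of the fit. The scripts were tested on simulated data. Exact permutation tests were two-sided and treat mice as independent. For the markers in MRL/lpr against MRL/+, the contrast Lamp5 was chosen from, no p is given, and the count past the threshold is a description. Every marker is named, with up to 3 genes of each other list that passed the threshold, by the smallest adjusted p, and the 2 genes most correlated with each marker. Of 8 white matter and 6 endothelium genes, also read, 0 passed by limma against Fn14ko over all mice, and 2 and 4 had an unadjusted p under 0.05. Alternatives covered background correction, signal column, normalization, filter, floor, averaging, dye, trend, array, replicate block, each mouse left out and the weak array left out. Python 3.11.15, pandas 2.3.3, numpy 2.4.6, statmod 1.5.0 and matplotlib 3.10.9 were used. Precision is limited by 6 arrays and by signal over background.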

Additional observations from a re-analysis of the deposited data

Results flagged for a closer look

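In Fn14ko replicate 1, the Lamp5 level was 1.63 times the channel median, the lowest of its strain and apart from the other 3 mice (3.16 to 3.43) by more of the range than 95% of groups of 4 would show. Of 27 groups of 4 examined, 1 was picked out in this way, and chance picks out about 1 in 20.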

How the results depend on the processing

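The 9 markers in 3 comparisons were recomputed under 28 alternatives. Lower Lamp5, Cux2, Rorb, Tbr1 and Mef2c in MRL/lpr kept their direction against both other strains under all 28. The call against Fn14ko was lost for all 5 with array as a random block, for Lamp5 with spots well above background (-0.51, on spots with an outlier flag), for Mef2c with quantile normalization (adjusted p = 0.0525), for Rorb with the 75th percentile (adjusted p = 0.0698) and for Rorb without Fn14ko replicate 2 (adjusted p = 0.0521). The highest adjusted p of Lamp5, Cux2, Rorb, Tbr1 and Mef2c in this comparison was 0.637, 0.1398, 0.262, 0.164 and 0.191. The cause was not tested.

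For MRL/lpr against MRL/+, against Fn14ko and for Fn14ko against MRL/+ in turn, the number of markers called was 1, 0 and 0 with array as a random block, 7, 9 and 9 with array weights, 7, 9 and 3 without the weak array, and 7, 8 and 3 without it on the same spots. On all spots the weights were 44.3 for MRL/lpr replicate 1, 10.3 for Fn14ko replicate 4 and 54.3 for MRL/+ replicate 4. The other mice had weights of 0.0273 to 1.77. For markers without valid spots that fit thus rested mainly on 1 mouse of each strain, and nothing is read from its counts. Array as a random block without the weak array, chosen after seeing the data, gave 7, 9 and 6, with estimated correlations of -0.265 and -0.475, which are negative and narrow the errors. Without trend the first count was 2. Leaving out each mouse gave 1 to 5, 4 to 5 and 0 to 0. With the replicate block the counts were 5, 5 and 0. Same-numbered mice deviated together with r of -0.395 to 0.503, so the numbers pair no mice.

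Signs turned in values that had not passed the threshold, some away from 0 as reported (Fezf2 0.84 and Etv1 0.50 against Fn14ko, Lamp5 -0.80 and Fezf2 -0.78 for Fn14ko against MRL/+). For MRL/lpr against Fn14ko, Foxp2 gave 0.0485 with normexp, 0.029 with quantile normalization, 1.01 with the 75th percentile and 0.29 with log2 means, and Rspo1 0.93 with the processed signal, 0.0836 with quantile normalization and 0.0915 with the 75th percentile. With no filter Fezf2 gave -0.62 and Etv1 -0.84, and Fezf2 -0.62 also on spots well above background. For Fn14ko against MRL/+, quantile normalization gave Cux2 -0.66, Tbr1 -0.28 and Foxp2 0.32, the 75th percentile Cux2 -0.60 and Tbr1 -0.19, no filter Lamp5 0.24 and Fezf2 0.13 (0.13 also on spots well above background), log2 means Rorb 0.24 and Tbr1 -0.13, array weights Rorb 0.35 and Mef2c 0.46, and leaving out the weak array, with or without the random block, Cux2 -0.50 and Tbr1 -0.0846. When 1 mouse was left out, the log2 difference of MRL/lpr from Fn14ko ran from -0.89 to 0.35 in Foxp2 and from -0.84 to 0.52 in Rspo1, and that of Fn14ko from MRL/+ from -0.38 to 0.22 in Mef2c, -0.30 to 0.0599 in Foxp2, -0.0401 to 0.36 in Cux2 and -0.43 to 0.0415 in Rorb.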
